A study of Mus musculus with 6 samples.

Results

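The mouse mitochondrial genome carries 37 genes, and their transcripts were described here in brown fat of cold-exposed and control mice. The members were all genes of the GENCODE M21 annotation of GRCm38 whose symbol begins with mt-, 13 for messenger RNAs, 2 for ribosomal RNAs and 22 for transfer RNAs, out of 8129 genes with a read. All 37 lie on chromosome M, 28 on the + strand and 9 on the - strand. The samples were interscapular brown adipose tissue, a fat depot that burns fuel to warm the body, from male wild type C57BL/6N mice aged 20 weeks. In the cold group 3 mice (replicates 4, 11 and 15) were held alone at 4 °C for 24 h, and the control group also had 3 mice (replicates 2, 9 and 14). The cold treatment is written on the records of all 6 samples, so the groups were taken from the titles. For controls only a husbandry range of 22 to 24 °C is given, and whether they lived alone is not stated, so cold and single housing cannot be told apart. The extraction text names a white fat depot, while the tissue label gives brown fat. All 6 genes of the brown adipocyte list had reads, as did all 3 of the white adipocyte list. Their presence alone does not settle which depot was taken.

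Mitochondrial DNA is transcribed from both strands into long precursors that run through many genes. In these precursors tRNA sequences stand between most of the other genes, and cutting them out frees the mRNAs and rRNAs. The mRNAs encode core subunits of respiratory complexes I, III, IV and V, which pump protons or use the proton gradient to make ATP, and brown fat is rich in this machinery because its uncoupling protein turns the same gradient into heat. Mitochondrial mRNAs end in short poly(A) tails and carry no cap of the nuclear kind, mature mt-Nd6 RNA is known to have little or no tail, and mature tRNAs have none. The library method favours capped RNA with a tail, so the reads are not a census of mitochondrial RNA, and levels of different genes within a library reflect how well each RNA entered it as well as its amount.

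Several features of the gene map bear on which gene a read was counted under, and their sequences are shown for that reason. The coding sequence of mt-Atp6 begins inside that of mt-Atp8, and mt-Nd4 begins inside mt-Nd4l, with both members of each pair carried on 1 mature mRNA. In the lines that follow, capitals mark the bases that belong to both genes, 43, 7 and 14 of them in turn, and 12 bases are shown on either side. The third pair, mt-Nd5 and mt-Nd6, lies tail to tail on opposite strands and is written on the + strand.
mt-Atp8/mt-Atp6, chrM:7915-7981: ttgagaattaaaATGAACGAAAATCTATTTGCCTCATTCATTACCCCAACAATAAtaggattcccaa
mt-Nd4l/mt-Nd4, chrM:10155-10185: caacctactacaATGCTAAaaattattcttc
mt-Nd5/mt-Nd6, chrM:13540-13577: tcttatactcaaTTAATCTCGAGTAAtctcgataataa

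Of the 13 mRNAs 10 end in a complete stop codon, while mt-Co3, mt-Nd4 and mt-Cytb end in a lone T that the poly(A) tail extends into TAA. These ends are shown because they are where the tail begins, with the lone T in capitals. For mt-Co3 and mt-Cytb the next gene, a tRNA gene, starts at the very next base.
mt-Co3, chrM:9378-9390: tgatgaggatctT
mt-Nd4, chrM:11532-11544: ggcctgacaataT
mt-Cytb, chrM:15276-15288: aaattatatccaT

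**Figure D1:**
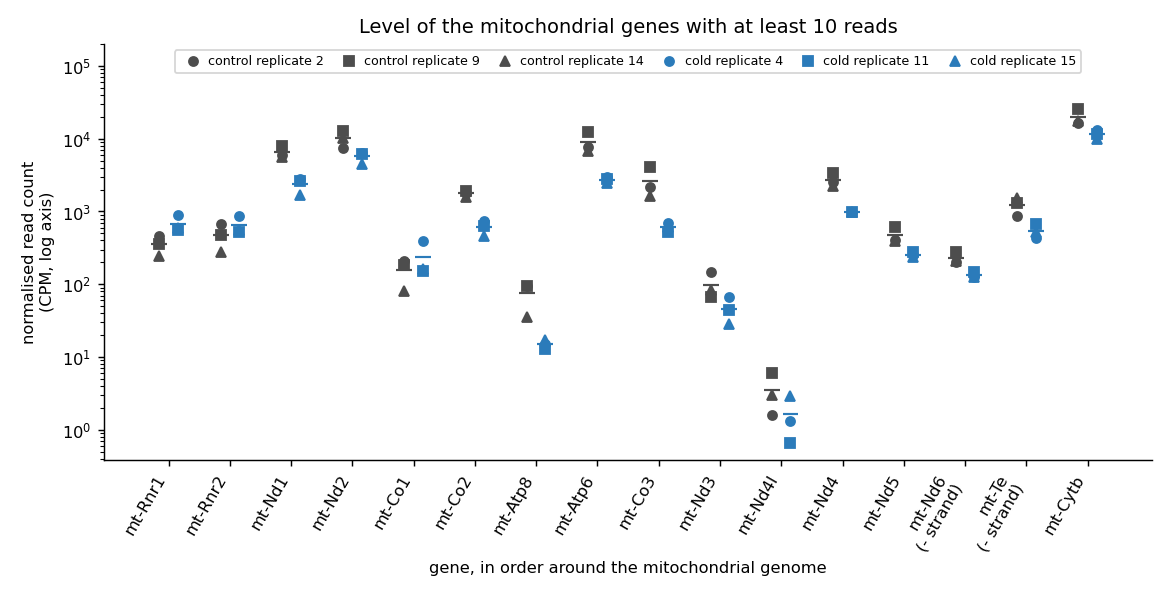
Level of the 16 mitochondrial genes with at least 10 reads, as normalised read count (CPM, log axis), in their order around the genome. Points are libraries, coloured by group and shaped by replicate, and bars are group means. In each library mt-Cytb stands highest and mt-Nd4l lowest of the 16.

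The 37 genes together held a smaller share of the reads in the cold. They took 4.71%, 6.84% and 4.66% of all reads in control replicates 2, 9 and 14, and 3.16%, 2.82% and 2.36% in cold replicates 4, 11 and 15. The groups did not overlap, with control replicate 9 the highest and cold replicate 15 the lowest. The means were 5.40% ± 1.25 in control and 2.78% ± 0.399 in cold (SD, n = 3 each), a difference of -2.62 percentage points (exact two-sided permutation p = 0.1, adjusted p = 0.183 over 11 composition values). With 3 libraries against 3 the smallest possible p is 0.1, so that no such test can pass 0.05. Leaving out each library in turn gave differences of -3.00 to -1.90. These values are shares of library reads and not amounts of RNA. In bulk tissue, fewer brown adipocytes and less mitochondrial RNA per cell cannot be told apart. Nor can either be told from more nuclear RNA, or from a change in how well mitochondrial RNA entered the library. Beside this, the summed level of the 6 genes of the brown adipocyte list was 46337 to 55638 CPM in control and 49226 to 52927 CPM in cold, with overlap. Of the 6, 2 were called lower, Adipoq and Cox8b. The list includes Fabp4, which is also on the endothelial list, and whether the sum measures brown adipocyte content was not tested.

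The libraries hold 1014812 to 2982630 reads on genes and 69436 to 92263 reads on the mitochondrial genes. Read depth was higher in all 3 cold libraries than in any control, and the effects of depth and cold cannot be told apart by design. With all libraries thinned to 1014812 reads 14 of the 15 tested mitochondrial genes kept their direction and their side of the threshold. The other, mt-Nd3, kept its direction at -0.96 ± 0.36 (adjusted p = 0.0627). All calls named here come from the quasi-likelihood test of edgeR, with Benjamini-Hochberg adjusted p values and a threshold of 0.05. Levels are normalised read counts (CPM, scaled with trimmed means of M-values, TMM), and changes are log2 cold minus control ± SE. Skeletal muscle markers ran from 87.3 to 517 CPM in control and stood at 127, 1558 and 8459 CPM in cold replicates 4, 11 and 15, with Myh2 without a read. None of the 6 tested muscle markers was called. Summed macrophage markers were 52.6 to 83.9 CPM in control and 52.4 to 119 CPM in cold, with Adgre1, Cd68 and Csf1r at 0. Endothelial markers other than Fabp4 were 93.2 to 113 and 86.0 to 99.3 CPM, fibroblast markers 7.17 to 17.8 and 10.7 to 22.0 CPM, with Col1a1, Col3a1 and Pdgfra at 0, and red blood cell genes 14921 to 28028 and 16265 to 22436 CPM. The white adipocyte list ran from 66.3 to 119 CPM in control and 166 to 255 CPM in cold. Of its 3 genes only Retn had enough reads to be tested, and it was called higher. The part of these cell types in the results was not tested. With cold replicate 4 alone kept in the cold group, a choice made after seeing the data that assumes it varies like the other libraries, 7 mitochondrial genes were called lower and 2 higher.

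Of the 37 genes 15 passed the count filter, which was 12 mRNAs, both rRNAs and 1 tRNA gene. Over all 2093 genes tested 15.1% were called lower in the cold, 18.1% were called higher and 33.2% were called in either direction. Among the 15 mitochondrial genes 12 were called lower and 1 higher. The median change of the 12 tested mRNAs was -1.27, against 0.04 over all tested genes. Cold libraries lay below all controls in 21.8% of all tested genes and in 12 of the 15 mitochondrial genes, the same 12 that were called lower. In either direction 47.8% of all tested genes had groups that did not overlap, against 13 of the 15 mitochondrial genes.

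**Figure D2:**
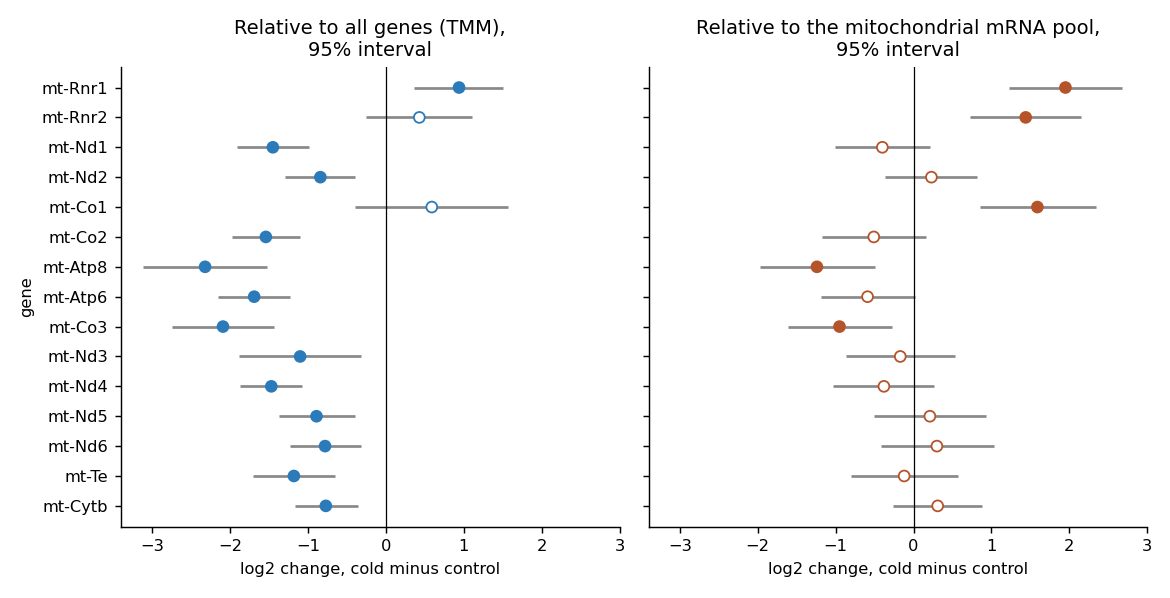
Log2 change, cold minus control, of the 15 tested mitochondrial genes with 95% intervals, scaled to all genes (left) and to the reads of the mitochondrial mRNAs alone (right). Filled points passed an adjusted p of 0.05. Of the filled points, 12 lie below 0 on the left and mt-Rnr1 above it, and on the right mt-Rnr1, mt-Rnr2 and mt-Co1 lie above 0 and mt-Atp8 and mt-Co3 below it.

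The rRNAs did not follow the mRNAs. The gene for the small subunit rRNA, mt-Rnr1 (12S, chrM:70-1024, + strand), stood at 458, 359 and 244 CPM in control replicates 2, 9 and 14 and at 881, 563 and 588 CPM in cold replicates 4, 11 and 15. Each cold library was above each control, and cold replicate 4 was the highest. The rise from 354 ± 107 to 677 ± 177 CPM (SD, n = 3) was 0.94 ± 0.26 on the log2 scale (edgeR adjusted p = 0.0181). This call was lost without control replicate 9 (0.91, adjusted p = 0.0597), control replicate 14 (0.70, adjusted p = 0.0706) or cold replicate 4 (0.67, adjusted p = 0.112). The gene for the large subunit rRNA, mt-Rnr2 (16S, chrM:1094-2675, + strand), stood at 684, 470 and 280 CPM in controls and 860, 517 and 557 CPM in the cold. Its groups overlapped, and the change of 0.43 ± 0.31 was not called (adjusted p = 0.307, 95% interval -0.25 to 1.11).

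Within the mitochondrial reads the rRNA share was 2.43%, 1.17% and 1.08% in control replicates 2, 9 and 14, and 5.64%, 3.89% and 5.01% in cold replicates 4, 11 and 15. The means of 1.56% ± 0.755 and 4.85% ± 0.888 differed by 3.29 percentage points, with no overlap (exact two-sided permutation p = 0.1, adjusted p = 0.183). There were 0.670 to 0.872 mt-Rnr1 reads per mt-Rnr2 read in controls and 1.02 to 1.09 in the cold. The rRNA genes lie next to each other with 1 tRNA gene between them. Mature mitochondrial rRNAs are known to have at most very short tails, and what part of them poly(A) selection took up was not tested.

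Complex I holds the largest group of mitochondrially encoded subunits, which form part of its membrane arm. The gene mt-Nd1 (chrM:2751-3707, + strand) stood at 5920, 7967 and 5677 CPM in control replicates 2, 9 and 14 and at 2835, 2640 and 1705 CPM in cold replicates 4, 11 and 15. Its highest cold library lay at less than the lowest control, and it fell by 1.45 ± 0.21 (edgeR adjusted p = 0.000517). For mt-Nd2 (chrM:3914-4951, + strand) the levels were 7529, 12726 and 10269 CPM in controls and 6403, 6226 and 4456 CPM in the cold. The groups were closer here, and the gene fell by 0.84 ± 0.20 (adjusted p = 0.00965).

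The gene mt-Nd4 (chrM:10167-11544, + strand) fell from 2543, 3416 and 2261 CPM to 972, 986 and 999 CPM, a change of -1.47 ± 0.18 (edgeR adjusted p = 0.000191). Its 3 cold libraries lay close together, with an SD of 13.4 CPM on a mean of 986 CPM, and far below the controls. The gene mt-Nd5 (chrM:11742-13565, + strand), the longest of the mRNAs, stood at 400, 620 and 389 CPM in controls and 249, 277 and 236 CPM in the cold (-0.89 ± 0.22, adjusted p = 0.0104). The gene mt-Nd3 (chrM:9459-9806, + strand) stood at 146, 67.6 and 82.5 CPM in controls and 66.5, 44.2 and 28.2 CPM in the cold, where cold replicate 4 lay just below control replicate 9. It was called lower (-1.10 ± 0.36, adjusted p = 0.0347), but not without control replicate 2 (adjusted p = 0.127), cold replicate 11 (adjusted p = 0.0926) or cold replicate 15 (adjusted p = 0.103).

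The only mRNA gene of the - strand, mt-Nd6 (chrM:13552-14070), stood at 204, 276 and 206 CPM in controls and 126, 147 and 127 CPM in the cold. It fell by 0.78 ± 0.21 (edgeR adjusted p = 0.0146), a call lost without control replicate 9 (adjusted p = 0.0507) or cold replicate 4 (adjusted p = 0.0639). The sources used here do not say that strand was kept in counting, so reads of mt-Nd6 cannot be told from reads of the opposite strand. At the other end of the range mt-Nd4l (chrM:9877-10173, + strand) had 3, 6 and 5 reads in control replicates 2, 9 and 14 and 4, 2 and 9 in cold replicates 4, 11 and 15. These 29 reads were too few for the test. Per mt-Nd4l read there were 338 to 1573 reads of mt-Nd4, although both are carried on the same mature mRNA.

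Complex III has a single mitochondrial subunit, cytochrome b. Its gene mt-Cytb (chrM:14145-15288, + strand) had the most reads of all 37 genes in every library, 16318, 25440 and 17259 CPM in control replicates 2, 9 and 14 and 13193, 11607 and 9910 CPM in cold replicates 4, 11 and 15. Every cold library lay below every control. The fall of 0.77 ± 0.18 (edgeR adjusted p = 0.00879) was close to that of mt-Nd6.

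The 3 largest subunits of cytochrome oxidase, complex IV, are mitochondrially encoded, and 2 of their genes were called lower while the third was not called. The gene mt-Co2 (chrM:7013-7696, + strand) fell from 1807, 1940 and 1568 CPM to 734, 642 and 454 CPM (-1.54 ± 0.20, edgeR adjusted p = 0.000279). The gene mt-Co3 (chrM:8607-9390, + strand) fell further, from 2158, 4036 and 1609 CPM to 692, 528 and 614 CPM (-2.09 ± 0.30, adjusted p = 0.000453). By contrast mt-Co1 (chrM:5328-6872, + strand), the gene of the catalytic subunit, stood at 207, 183 and 80.7 CPM in control replicates 2, 9 and 14 and 393, 154 and 161 CPM in cold replicates 4, 11 and 15. Its groups overlapped and it was not called (0.59 ± 0.44, adjusted p = 0.329, 95% interval -0.39 to 1.57). The estimate was -0.02 without cold replicate 4, the only cold library above the controls.

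In levels mt-Co1 went with the rRNAs across libraries: control replicate 2 was the highest and control replicate 14 the lowest of the controls for mt-Co1, mt-Rnr1 and mt-Rnr2, and cold replicate 4 was the highest of all for the 3 genes. Per length mt-Co1 was also far below its partners, at 102 ± 43.6 CPM per kilobase in control against 2590 ± 275 for mt-Co2 and 3317 ± 1623 for mt-Co3.

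Complex V, the ATP synthase, has 2 mitochondrial subunits of its proton channel part. The gene mt-Atp6 (chrM:7927-8607, + strand) fell from 7626, 12187 and 6804 CPM in control replicates 2, 9 and 14 to 2999, 2753 and 2492 CPM in cold replicates 4, 11 and 15 (-1.69 ± 0.21, edgeR adjusted p = 0.000216). The overlapping gene mt-Atp8 (chrM:7766-7969, + strand) fell from 95.4, 95.2 and 35.9 CPM to 15.0, 12.9 and 17.1 CPM (-2.32 ± 0.36, adjusted p = 0.000727, 5.00-fold lower). Control replicate 14 stood well below the other controls but above every cold library. Per mt-Atp8 read there were 80.0, 128 and 190 reads of mt-Atp6 in controls and 199, 214 and 146 in the cold. On the log2 scale this ratio did not separate the groups (difference -0.56, exact two-sided permutation p = 0.2, adjusted p = 0.314), and it was -0.24 without control replicate 2 and -0.86 without control replicate 14. Both genes share 1 mature mRNA, so these counts show to which of 2 overlapping annotations a read was assigned, not separate RNAs.

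Among the 22 tRNA genes, 15 had no read in any library (mt-Tv, mt-Tl1, mt-Tw, mt-Ta, mt-Tc, mt-Ty, mt-Ts1, mt-Td, mt-Tk, mt-Tg, mt-Tr, mt-Th, mt-Ts2, mt-Tl2 and mt-Tt). A further 6 had 1 to 3 reads over all libraries, 12 reads in all (mt-Tf, mt-Ti, mt-Tq, mt-Tm, mt-Tn and mt-Tp). A count of 0 allows up to 3 reads, or 1.01 to 2.96 CPM depending on the library, counting error alone. The exception was mt-Te, the gene of the glutamate tRNA (chrM:14071-14139, - strand), which held at least 99.77% of the tRNA gene reads of each library. Its sequence is shown because it is the only tRNA gene with reads to speak of. Capitals mark the anticodon, in the middle of a 7-base loop closed by 5 pairs.
mt-Te, chrM:14071-14139, - strand: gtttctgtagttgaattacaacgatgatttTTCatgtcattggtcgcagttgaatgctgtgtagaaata

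Reads on mt-Te stood at 868, 1293 and 1544 CPM in control replicates 2, 9 and 14 and 432, 678 and 527 CPM in cold replicates 4, 11 and 15. The groups did not overlap, and the gene was called lower (-1.18 ± 0.24, edgeR adjusted p = 0.00372). The gene lies between mt-Nd6, which adjoins it on the same strand, and mt-Cytb, which starts a few bases beyond it on the opposite strand. There were 3.43 to 7.49 reads on mt-Te per read on mt-Nd6, and 3.27 to 8.95 per 100 on mt-Cytb, with the ranges of the groups overlapping in both. The share of all tRNA genes in the mitochondrial reads was 2.29% ± 0.785 in control and 2.05% ± 0.565 in cold (exact two-sided permutation p = 0.8). The 9 genes annotated on the - strand, most of whose reads were on mt-Te, held 2.71% ± 0.795 and 2.55% ± 0.642 (exact two-sided permutation p = 0.8). That share says nothing of the strand of a read. As for mt-Nd6, reads on mt-Te cannot be told from reads of the opposite strand. No difference in these shares was detected with 3 libraries a group.

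Levels were also divided by gene length, which raises short genes. Whether reads scaled with length in these nanopore libraries was not tested. Undivided, mt-Te stood at 1235 ± 342 CPM in control, against 19672 ± 5017 CPM for mt-Cytb. Compared per length, the order of the genes in control libraries was led by mt-Te at 17899 ± 4952 CPM per kilobase and mt-Cytb at 17196 ± 4386, which were not separated. Next came mt-Atp6 at 13028 ± 4258, mt-Nd2 at 9802 ± 2505 and mt-Nd1 at 6814 ± 1314 CPM per kilobase, each with a range over control libraries that overlapped its neighbour's. Within libraries mt-Te stood above mt-Cytb in 1 of 6, and mt-Atp6 above mt-Nd2 in 3 of 6. In 6 of 6 mt-Cytb stood above mt-Atp6, and mt-Nd2 above mt-Nd1. All 5 stood above mt-Co3, mt-Co2 and mt-Nd4, at 3317 ± 1623, 2590 ± 275 and 1988 ± 437 CPM per kilobase, which again overlapped each with the next. A gap followed, and mt-Nd6, mt-Rnr1, mt-Atp8, mt-Rnr2, mt-Nd3 and mt-Nd5 lay between 441 and 258 CPM per kilobase, overlapping in turn. Lowest were mt-Co1 at 102 and mt-Nd4l at 12.1 CPM per kilobase. In the cold mt-Rnr1 moved from rank 10 to 9 and mt-Rnr2 from 12 to 10, mt-Co1 moved from 15 to 12, and mt-Atp8 moved from 11 to 15. This order leaves out reads on the nuclear copies described below, and it depends on that choice. With those reads added, mt-Atp6 stood at 17537 ± 6019 CPM per kilobase in control, against 17210 ± 4345 for mt-Cytb. On that count mt-Nd3 stood at 630 ± 236 in control, against 442 ± 78.2 for mt-Nd6.

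Place on the genome and length were set beside these values. Over the 13 mRNAs the control level per kilobase had a rank correlation of -0.12 with the start on the genome and 0.14 with length. The log2 change had a rank correlation of -0.23 with the start and 0.52 with length over the 14 tested mRNAs and rRNAs, and of 0.20 and 0.51 over the 12 tested mRNAs, so that the sign for the start turned with the genes taken. These genes share libraries and 1 precursor, and the values are a description.

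**Figure D3:**
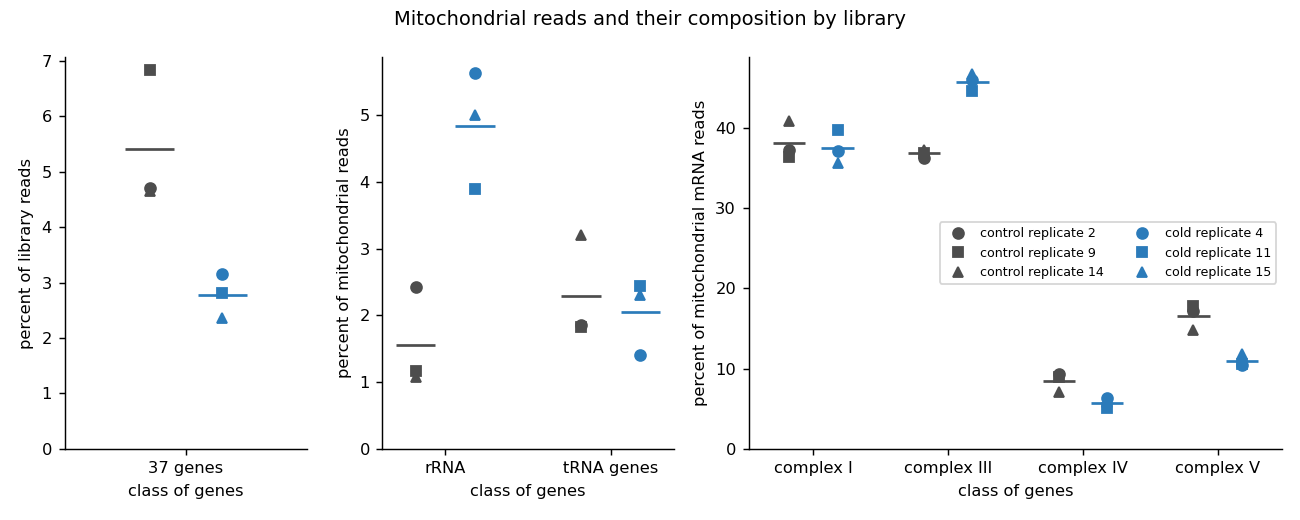
Reads on all 37 genes as percent of the library (left), rRNA and tRNA genes as percent of the mitochondrial reads (middle) and each respiratory complex as percent of the reads of the 13 mRNAs (right). Points are libraries and bars are group means. The groups do not overlap for the 37 genes, the rRNAs and complexes III, IV and V.

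The make-up of the mRNA pool was compared apart from its size. Together mt-Cytb, mt-Nd2, mt-Atp6 and mt-Nd1 made up 83.2% to 89.3% of the reads of the 13 mRNAs in each library. The share of mt-Cytb was 36.3%, 36.9% and 37.3% in control replicates 2, 9 and 14 and 46.0%, 44.6% and 46.7% in cold replicates 4, 11 and 15. These values lay close together within groups and apart between them, at 36.8% ± 0.514 and 45.8% ± 1.08 (exact two-sided permutation p = 0.1, adjusted p = 0.186 over 13 mRNAs).

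Complex V genes held 16.6% ± 1.59 of the mRNA reads in control and 11.0% ± 0.731 in cold, and complex IV genes 8.42% ± 1.2 and 5.74% ± 0.628, in both cases with no overlap (exact two-sided permutation p = 0.1 each, adjusted p = 0.183). Complex I genes held 38.2% ± 2.37 and 37.5% ± 2.04, with overlap (exact permutation p = 0.6). Since shares of a pool sum to the whole, a higher share of mt-Cytb goes with lower shares elsewhere. Within complex I mt-Nd1 went from 12.3% ± 0.810 to 9.36% ± 1.15 and mt-Nd4 from 5.17% ± 0.426 to 3.96% ± 0.678, neither with overlap, while mt-Nd2 stood at 19.1% ± 2.79 and 22.4% ± 1.46, with overlap. The share of mt-Co1 was 0.461%, 0.266% and 0.174% in controls and 1.37%, 0.591% and 0.762% in the cold, with no overlap.

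Fitting all genes with the reads of the 13 mRNAs as the library size gives changes relative to that pool. On this scale the median over all tested genes was 1.08, 59.5% of genes were called higher, 2.53% lower and 62.1% in either direction. Among the mitochondrial genes mt-Rnr1 (1.95 ± 0.37, edgeR adjusted p = 9.9e-07), mt-Rnr2 (1.44 ± 0.36, adjusted p = 0.000262) and mt-Co1 (1.59 ± 0.38, adjusted p = 0.00011) were called higher than the pool. Called lower were mt-Atp8 (-1.24 ± 0.37, adjusted p = 0.00248) and mt-Co3 (-0.95 ± 0.34, adjusted p = 0.0106). The other 10 were not called, with estimates from -0.59 ± 0.31 for mt-Atp6 (adjusted p = 0.0834) to 0.31 ± 0.29 for mt-Cytb (adjusted p = 0.332). The SE of this fit draws in part on the spread of all tested genes, so a gene not called may still have changed its share. The share of mt-Cytb went from 36.8% ± 0.514 to 45.8% ± 1.08 and that of mt-Atp6 from 16.4% ± 1.54 to 10.9% ± 0.714, neither with overlap.

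Near-identical copies of mitochondrial genes in the nuclear genome also drew reads. Such copies are stretches of mitochondrial DNA that were inserted into chromosomes. A search of the annotated transcripts at 90% identity or more, over at least 100 bases or 50 for tRNA genes, found 18 nuclear genes with a match, of which 13 had reads. Of these 6 had at least 10 reads, all on the - strand of a block of chromosome 1 from 24611535 to 24616197. Copies of mt-Co1, mt-Co2, mt-Atp6, mt-Co3, mt-Nd3 and mt-Nd4 follow each other there, in the order of the mitochondrial genome. The copies took 0.362%, 0.571% and 0.263% of all reads in control replicates 2, 9 and 14 and 0.137%, 0.111% and 0.108% in cold replicates 4, 11 and 15. The groups did not overlap (exact two-sided permutation p = 0.1, adjusted p = 0.183), as for the mitochondrial reads themselves.

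**Figure D4:**
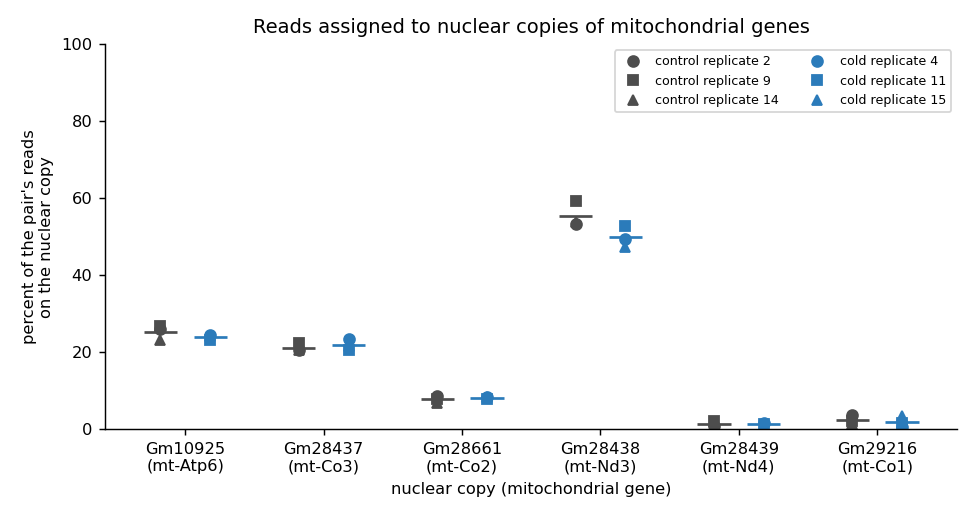
Percent of the reads of each pair of mitochondrial gene and nuclear copy that was counted on the copy. Points are libraries, coloured by group, and bars are group means. Gm28438, the copy of mt-Nd3, takes 47.2% to 59.3% of its pair, and Gm10925 and Gm28437 take 20.5% to 26.7%.

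The aligned part of Gm10925, the copy of mt-Atp6, has 0 mismatches over 678 bases and lacks only the last 3 bases of the gene. It had 20621 reads, 23.1% to 26.7% of the reads of the pair in each library. Gm28437, the copy of mt-Co3, has 0 mismatches over 783 bases and took 20.5% to 23.5%. Gm28661 matches mt-Co2 over 681 bases with 0 mismatches and took 6.92% to 8.59%. Gm28439 holds the first 876 of the 1378 bases of mt-Nd4 and took 0.799% to 2.08%, and Gm29216, with 1 mismatch (A1066T) over the last 483 bases of mt-Co1, took 0.676% to 3.75%. Sequence alone cannot assign a read that lies within the stretch the copy shares without a mismatch.

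The copy of mt-Nd3 took a larger part of its pair than the other 5 copies in each library. Gm28438 took 53.2%, 59.3% and 53.7% of the pair in control replicates 2, 9 and 14 and 49.5%, 52.8% and 47.2% in cold replicates 4, 11 and 15 (55.4% ± 3.37 and 49.8% ± 2.81, exact two-sided permutation p = 0.1, adjusted p = 0.6 over 6 copies). It differs from mt-Nd3 in 1 of 345 aligned bases, T3C, counted from 1 at the first base of the gene, with the base of mt-Nd3 first. The starts of both are shown with this base in capitals. On the reference it is base 9461 of chromosome M, and whether the C57BL/6N mice of this study carry the reference base there was not tested.
mt-Nd3, chrM:9459-9488, + strand: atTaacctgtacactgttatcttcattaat
Gm28438, chr1:24613090-24613119, - strand: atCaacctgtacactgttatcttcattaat

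The 5 tested copies were called lower in the cold, as were their mitochondrial partners and 15.1% of all tested genes. Since sequence cannot assign reads within the shared stretches, the falls of the copies cannot be told apart from those of their partners. Gm10925 fell by 1.82 ± 0.25 (edgeR adjusted p = 0.000426), Gm28437 by 2.04 ± 0.35, Gm28661 by 1.46 ± 0.25, Gm28438 by 1.37 ± 0.35 and Gm28439 by 1.52 ± 0.47, the last with an adjusted p of 0.0284. With the reads of the copies added to the mitochondrial gene, mt-Atp6 stood at 11943 ± 4099 CPM in control and 3610 ± 347 in cold (-1.73 ± 0.22, adjusted p = 0.000208). On the same count mt-Nd3 stood at 219 ± 82.2 and 92.9 ± 39.1 CPM (-1.24 ± 0.34, adjusted p = 0.0175). The same 12 genes were called lower and mt-Rnr1 higher.

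Nuclear genes that serve the mitochondrial genome were described from lists. Few of them could be tested, and their counts stand beside 18.1% called higher, 15.1% lower and 33.2% either way over all tested genes. Of 20 genes of mitochondrial RNA synthesis and processing with reads 11 were tested, of which 3 rose and 1 fell, with a median change of 0.60. These 36.4% lie near the share over all genes. The rises were of Fastk (13 ± 4.09 to 44.2 ± 6.69 CPM, 1.73 ± 0.28, edgeR adjusted p = 0.000955), a founding member of a family of mitochondrial RNA-binding proteins whose mitochondrial form is known for its part in mt-Nd6 mRNA, Grsf1 (29.1 ± 8.88 to 78.1 ± 5.09 CPM, 1.43 ± 0.26, adjusted p = 0.00195), a protein of mitochondrial RNA granules, and Ptcd2 (1.37 ± 0.29, adjusted p = 0.00424), known for its part in cytochrome b mRNA. Hsd17b10, a subunit of the enzyme that cuts the 5' ends of mitochondrial tRNAs, fell by 0.74 ± 0.20 (adjusted p = 0.0172), and this call was lost without cold replicate 11 (adjusted p = 0.0858). Tfam, which packages mitochondrial DNA and starts its transcription, stood at 20.0 ± 3.04 and 30.2 ± 2.30 CPM and was not called (0.60 ± 0.24, adjusted p = 0.0738).

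Of 10 genes of mitochondrial RNA stability and decay with reads 4 were tested, and 2 of these rose. Rexo2, an exonuclease that degrades very short RNAs, rose from 14.8 ± 4.06 to 90.1 ± 9.95 CPM (2.61 ± 0.27, edgeR adjusted p = 6.1e-05). Slirp, the partner of Lrpprc in binding mitochondrial mRNAs, rose from 74.0 ± 26.9 to 154 ± 22.3 CPM (1.05 ± 0.27, adjusted p = 0.0123), a call lost without control replicate 9, control replicate 14 or cold replicate 4 (adjusted p = 0.0543 to 0.0603), which left 1. Of 12 genes of mitochondrial DNA maintenance with reads 2 were tested and both rose, the pyrimidine nucleotide carrier gene Slc25a33 by 1.43 ± 0.25 (adjusted p = 0.00164) and Atad3a by 1.25 ± 0.32 (adjusted p = 0.0113). The call of Atad3a was lost in DESeq2 (adjusted p = 0.0632), with flow cell 2 alone (adjusted p = 0.068) and at equal depth (adjusted p = 0.106). Of 18 mitochondrial tRNA synthetases with reads 4 were tested, and Cars2, which charges the cysteine tRNA, was called (4.69 ± 0.33, adjusted p = 7.7e-06). Of 13 translation factors with reads 5 were tested, of which edgeR called 0, with 1 at an unadjusted p under 0.05 and 0 called by DESeq2, while 2 were called without control replicate 14. The only tested gene of 22 of mitochondrial RNA modification with reads, Mrm2, was not called (-0.19 ± 0.33, adjusted p = 0.675).

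Nuclear subunits of the complexes that the mitochondrial genes help to build were called at 24.3% for complex I, 30.8% for complex IV and 13.3% for complex V. Over all tested genes 33.2% were called either way, 15.1% lower and 18.1% higher. All calls in complexes IV and V were falls, so their 30.8% and 13.3% stand beside the 15.1% called lower. Among nuclear subunits of complex I 7 of 37 fell and 2 rose (median -0.19), of complex IV 4 of 13 fell (median -0.38) and of complex V 2 of 15 fell (median -0.08). In complex III edgeR called 0 of 9, with 3 at an unadjusted p under 0.05 and 0 by DESeq2, and 1 was called without control replicate 9. The calls by smallest p were of Ndufa5 (1.13 ± 0.16), Ndufa7 (-0.92 ± 0.16), Ndufs8 (-0.69 ± 0.17) and Ndufb8 (-0.70 ± 0.19) in complex I. In complex IV they were of Cox8b (-0.98 ± 0.25), Cox6a1 (-0.42 ± 0.12), Cox5b (-0.43 ± 0.13) and Cox7b (-0.39 ± 0.13), and in complex V of Atp5k (-0.78 ± 0.22) and Atp5d (-0.45 ± 0.13). These counts moved when single libraries were left out, a step that also leaves the test with fewer libraries. Complex I had 2 calls without cold replicate 4 and 3 without cold replicate 11. Complex IV had 1 without cold replicate 4 or 15 and 0 without cold replicate 11. Complex V had 1, 0 and 1 without cold replicates 4, 11 and 15 and 4 without control replicate 2. The difference between mitochondrial and nuclear subunits was not tested.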

How the data were processed

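Poly(A) RNA, selected in 2 rounds, was made into cDNA with the TeloPrime kit over 27 PCR cycles and sequenced on nanopore flow cells, per the labels' protocols. The authors deposited raw read counts per Ensembl transcript, 1 file per library and flow cell, 12 in all, with no normalization. Minimap2 and GRCm38 are named in the submitters' processing notes, and the sources used here do not state how reads with several possible transcripts were counted. Counts were summed over both flow cells and joined to GENCODE M21 genes without the version (14671 of 14693 transcript identifiers matched). Molecular identifiers are not named, so floors cover counting error only. Intervals of the log2 changes rest on the SE of the quasi-likelihood test, which includes the spread between libraries.

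Tests used all 6 libraries, R 4.3.3 and edgeR 4.0.16 (filterByExpr at a minimum count of 10, TMM, robust quasi-likelihood F test, Benjamini-Hochberg over all 2093 genes). DESeq2 1.42.0 was an alternative. Each SE was derived from the F statistic as the change over its root. Composition values were compared by exact permutation. Copies were sought with blastn 2.17.0, and sequences were read from the GENCODE M21 transcripts. The members and lists were chosen with earlier results of these data known. All members were named, with values for those of at least 10 reads, and of each list the called genes up to 4 by smallest p. Tfam and Mrm2 were named after their values were seen. Replicates are mice by their numbers in the titles, and p-values measure the spread between these libraries.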

Additional observations from a re-analysis of the deposited data

How the results depend on the processing

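No paired analysis was possible because the mouse numbers of the groups are not shared. Of the 15 tested mitochondrial genes all kept their direction and call with library totals, TMM without mitochondrial genes, DESeq2, flow cell 1 alone, version-matched transcripts and copy reads added. The call of mt-Nd3 was lost with flow cell 2 alone and at equal depth, and that of mt-Nd6 with no count filter. Without TMM the median over all genes was 0.11, in DESeq2 -0.12 and with no count filter 0.30, against 0.04.

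Scaled to the mitochondrial mRNA pool, 1299 genes were called, 3 mitochondrial genes higher and 2 lower, and mt-Nd2, mt-Nd5, mt-Nd6 and mt-Cytb turned to 0.23, 0.21, 0.30 and 0.31 (0.27, 0.25, 0.34 and 0.35 with copy reads added as well, chosen after seeing the data, with 1324 genes, 3 higher and 2 lower). The nuclear genes Hsd17b10, Ndufa7, Ndufs8, Ndufb8, Cox8b, Cox6a1, Cox5b, Cox7b, Atp5k and Atp5d turned to 0.30, 0.11, 0.37, 0.32, 0.04, 0.61, 0.61, 0.64, 0.23 and 0.58. Lists then had 9 (synthesis), 4 (stability), 3 (synthetases) and 5 (translation) calls, and complexes I, III and V 22, 6 and 12. These moves follow from the scale, whose median was 1.08. With cold replicate 4 alone in the cold group 321 genes were called, 7 mitochondrial genes lower and 2 higher.

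Other settings moved list counts. With library totals translation factors, complex IV and complex V had 1 call each. Complex III had 1 call with TMM without mitochondrial genes, either flow cell or equal depth. DNA maintenance had 1 call in DESeq2, flow cell 2 and equal depth, and translation factors 1 with flow cell 2, equal depth or no filter. DESeq2 called 2 of complex IV. With no filter complexes I, IV and V had 4, 1 and 1. With copy reads added the complex V difference was -6.84.

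Leaving out each library in turn gave 498 to 687 called genes, 11 to 12 mitochondrial genes lower and 0 to 1 higher. The lists ranged over 3 to 5 (synthesis), 1 to 3 (stability), 0 to 2 (translation), 2 to 10 (complex I), 0 to 1 (complex III), 0 to 4 (complex IV) and 0 to 4 (complex V). The log2 change of mt-Co1 ranged from -0.02 to 0.84, the rRNA share difference from 2.89 to 3.76, and those of complexes III, IV and V from 8.47 to 9.53, -3.36 to -2.24 and -6.50 to -4.99. The cause of these shifts was not tested. With flow cell 2 alone the mt-Nd4l ratio could not be computed because of a library with 0 reads.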

Other observations

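Reads on mt-Te differed between the flow cells of the same library. The share of reads on mt-Te was 1.16, 1.26, 1.13, 1.02, 1.19 and 1.17 times higher on flow cell 1 than on flow cell 2 in control replicates 2, 9 and 14 and cold replicates 4, 11 and 15. By exact binomial test over 15 genes of at least 10 reads, mt-Te differed in every library but cold replicate 4, with adjusted p = 0.00064 in control replicate 9 and adjusted p = 0.768 in cold replicate 4. The only other gene to differ was mt-Nd5 in cold replicate 11. Both flow cells called mt-Te lower in the cold.

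A further 7 nuclear copies had 1 to 9 reads each over all libraries, 24 in all. Gm13339, a copy of mt-Nd2 on chromosome 2 at 96.7% identity, had 9 of them, against 95189 reads on mt-Nd2. Gm10222, which matches mt-Nd4l over 294 bases at 100% identity, had 4. Both were chosen after their values were seen.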
